A study of Mus musculus with 14 samples.

Results

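The zinc finger genes Zic1, Zic2, Zic5, Sall1, Sall2, Sall3 and Sall4 were followed across 14 arrays of differentiating mouse embryonic stem (ES) cells. They are 7 of the 19938 genes measured, taken by name. Each gene is represented by a probe set (a group of array probes summarised to a single value) that the platform annotation gives 1 symbol. For a gene with several probe sets, the brightest on average was used. Values are log2 signals from RMA, a method that normalizes arrays towards a common distribution, so a difference of 1 is a 2-fold change.

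The cells carried transgenes for ER71/Etv2, GATA2 and Scl (gene symbols Etv2, Gata2 and Tal1), switched on by 1 µg/ml doxycycline, present between day 2 and day 3 while they differentiated as embryoid bodies (EBs). The design text speaks of 3 factors but lists only ER71/Etv2 and GATA2, and the labels add Scl. Untreated cells of the same lines, labelled wild-type, were the controls, so all groups share the transgenes and differ in doxycycline. Control day 2.25 and induced 6 h had 1 array each, of line iEGS. The other groups, the controls of day 2.5 and day 3 and the cells induced for 12 h and 24 h, had 3 arrays each. Of these, replicates 1 and 2 came from line iEGS and replicate 3 from line iB1. The lines had been kept on PMEF feeder cells before differentiation. Doxycycline given to cells without the transgenes was not analysed here. The study asked which genes follow induction of the factors at each time.

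Zic proteins are zinc finger transcription factors related to the Gli factors of hedgehog signalling. Zic2 binds enhancers of pluripotent cells and acts later in the patterning of the forebrain and neural tube, where Zic1 and Zic5 also act, Zic5 with a role in neural crest. Sall proteins, the vertebrate relatives of Drosophila spalt, are multi-zinc-finger factors that recruit the NuRD histone deacetylase complex. Sall4 is needed for the self-renewal of ES cells and Sall1 for the kidney. Zic2, Zic5 and the Sall genes are expressed in the pluripotent epiblast, the tissue that the cells of an early EB resemble.

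The induced factors followed the labels, and the cell markers did so in part. Etv2, Gata2 and Tal1 rose by 3.11 ± 0.192, 4.44 ± 0.179 and 2.48 ± 0.239 log2 units at 12 h (standard error (SE), n = 3 arrays per group, limma adjusted p = 6.86e-07, 1.07e-08 and 4.9e-05). The pluripotency factor Pou5f1 had means of 11.14 in control day 2.5, 10.81 in control day 3 and 10.12 in induced 24 h. Its change at 24 h against control day 3 was -0.68 ± 0.154 (limma adjusted p = 0.015). The pluripotency marker Utf1 did not pass at 24 h, with a change of -0.10 ± 0.217 (limma adjusted p = 0.86). Among 12 endothelial genes 9 rose at 24 h and 0 fell. Across all genes, 1088 of 19938 passed in either direction, 683 of them lower. Kdr and Pecam1 were among those that did not pass, with changes of 0.62 ± 0.264 and 0.81 ± 0.346 (limma adjusted p = 0.252 and 0.259). In untreated cells Kdr rose from day 2.5 to day 3, by 2.02 ± 0.264 (limma adjusted p = 0.0016). The log2 of the summed signal of the 12 genes went from between 9.10 and 9.17 in control day 3 to between 11.51 and 12.09 in induced 24 h. Correlations between any pair of arrays over all genes ranged from 0.951 to 0.995. Induced 24 h replicate 3 stood furthest from the other arrays, with a mean correlation of 0.966 (0.976 or more elsewhere), and had the narrowest spread of values, an SD of 1.91 (2.04 or more elsewhere). The number of arrays limits the precision. In bulk RNA, fewer cells of a type and less RNA per cell cannot be told apart.

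Start-site windows from RefSeq (GRCm38.p6) were used for 4 of the 7 genes, Zic1, Zic5, Sall1 and Sall2. Windows of the other genes are not reported here. The 250 bases before a start are shown for the genes among them that fell with induction and for Zic1, which did not pass the test, since the induced factors bind short motifs that can be looked for there. Capitals mark matches, on either strand, to the ETS motifs CCGGAA and AGGAAG, the GATA motifs AGATAA and TGATAA, the E-boxes CAGCTG and CAGATG, and the composite AACAGGAA, which overlaps the ETS motifs in its GGAA core. All sequences run 5′ to 3′ along the gene's own strand, here the minus strand.
Zic5, chr14:122465659-122465908: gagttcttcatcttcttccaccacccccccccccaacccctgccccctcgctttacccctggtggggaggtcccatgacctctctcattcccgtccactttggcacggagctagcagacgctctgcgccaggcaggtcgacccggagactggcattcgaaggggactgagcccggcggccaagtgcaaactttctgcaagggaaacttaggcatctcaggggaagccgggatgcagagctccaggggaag
Sall1, most downstream of 3 windows, chr8:89042863-89043112: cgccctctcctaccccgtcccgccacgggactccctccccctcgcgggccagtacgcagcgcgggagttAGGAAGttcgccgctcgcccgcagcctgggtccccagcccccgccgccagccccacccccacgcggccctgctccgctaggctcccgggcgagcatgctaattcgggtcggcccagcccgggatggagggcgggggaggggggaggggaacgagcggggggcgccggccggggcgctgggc
Sall2, upstream window, chr14:52328671-52328920: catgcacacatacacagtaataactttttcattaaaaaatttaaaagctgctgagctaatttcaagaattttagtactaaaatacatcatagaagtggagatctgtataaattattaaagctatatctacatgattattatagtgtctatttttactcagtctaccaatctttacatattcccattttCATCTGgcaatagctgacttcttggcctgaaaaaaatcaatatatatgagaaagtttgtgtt
Sall2, downstream window, chr14:52316324-52316573: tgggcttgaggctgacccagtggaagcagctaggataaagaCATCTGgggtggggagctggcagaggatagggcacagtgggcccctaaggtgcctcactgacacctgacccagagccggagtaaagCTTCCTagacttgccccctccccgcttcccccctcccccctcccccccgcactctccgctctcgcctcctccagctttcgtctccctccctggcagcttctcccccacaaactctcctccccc
Zic1, chr9:91365769-91366018: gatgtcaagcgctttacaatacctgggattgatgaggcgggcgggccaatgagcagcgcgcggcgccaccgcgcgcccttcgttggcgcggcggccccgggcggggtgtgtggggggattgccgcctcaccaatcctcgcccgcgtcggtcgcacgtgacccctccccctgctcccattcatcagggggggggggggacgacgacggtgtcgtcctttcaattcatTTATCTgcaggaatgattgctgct

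Of the 7 motifs, the Zic5 window held 0. The Sall1 window held AGGAAG 181 bases before the start, and the other two Sall1 windows held 0. Both Sall2 windows held CAGATG in reverse, 62 and 209 bases before the start, and the downstream one also AGGAAG in reverse, 123 bases before the start. Zic1 held AGATAA in reverse, 24 bases before the start. These are common words. AGGAAG occurred in 35.4% of the 32851 RefSeq windows of 300 bases, CAGATG in 17.2%, CAGCTG in 16.3%, CCGGAA in 14.9%, AGATAA in 11.2%, TGATAA in 9.05% and AACAGGAA in 2.65%. A match is a description of the letters, and these arrays hold no measure of binding.

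At 24 h of induction, 6 of the 7 genes were lower than in control day 3 and passed the test, and Zic1 did not. Across all genes 3.43% passed in that direction, 683 of 19938. The falls were 6.44-fold for Zic2, 4.59-fold for Zic5 and 2.76-fold for Sall1, and between 1.54-fold and 1.69-fold for Sall2, Sall3 and Sall4. At 12 h, Zic2, Zic5 and Sall2 had fallen relative to control day 2.5, by 2.45-fold, 2.18-fold and 2.09-fold, against 0.577% of all genes, 115 in number. In both comparisons 0 of the 7 rose. The median log2 change of the 7 genes was -0.48 at 12 h and -0.76 at 24 h, where the medians of all genes were -0.01 and 0.00. The Zic5 values need a caution, given with that gene, because its probe sets differed in the size of the fall.

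**Figure D1:**
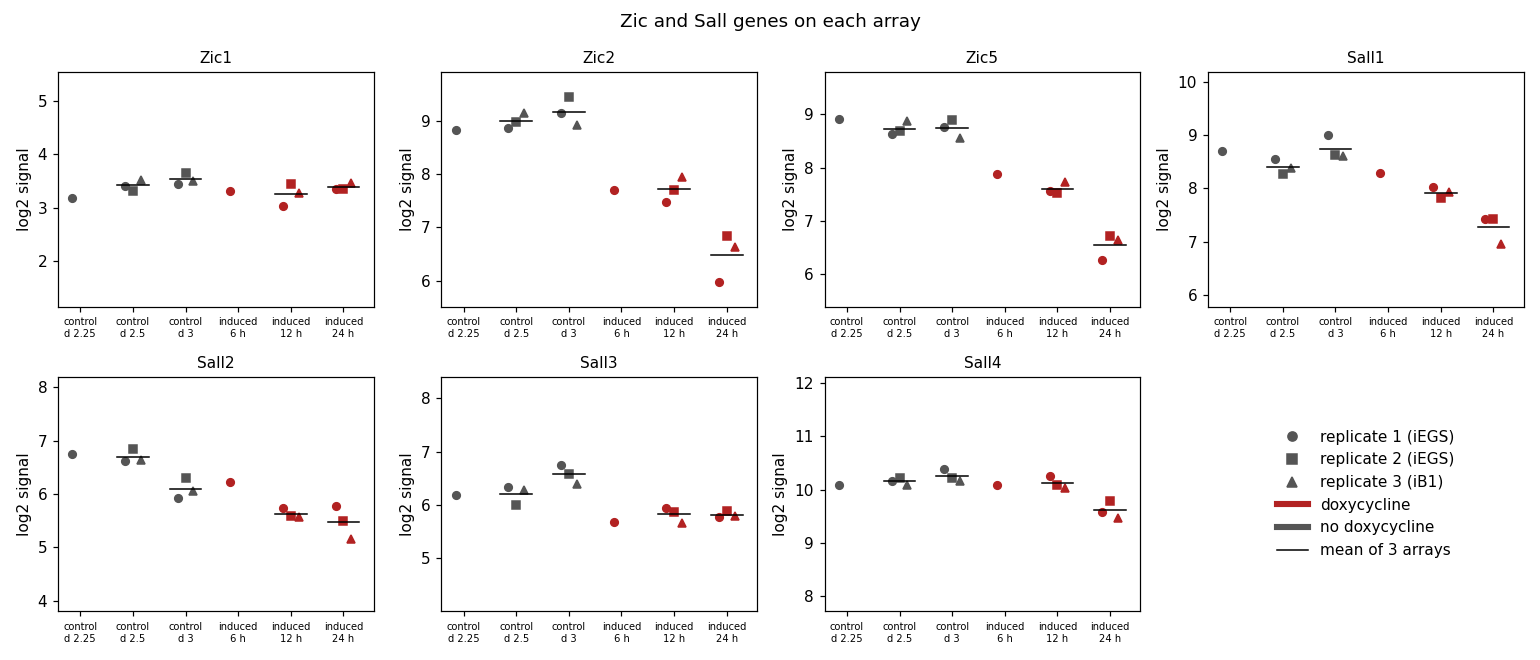
Log2 signal of each gene on each of the 14 arrays, by group along the x axis (controls in grey, doxycycline in red), with markers for the replicate and line and bars at the mean of 3 arrays. Every panel spans the same number of log2 units. Zic2 and Zic5 step down from control to 12 h to 24 h, Sall4 is low only at 24 h, and Zic1 stays between 3.03 and 3.65.

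Zic2 showed the largest fall of the 7. Its signals were 8.87, 8.98 and 9.15 in control day 2.5 and 7.48, 7.70 and 7.95 in induced 12 h, for replicates 1, 2 and 3. In control day 3 they were 9.14, 9.44 and 8.92, and in induced 24 h 5.98, 6.83 and 6.63. All induced arrays lay below all control arrays, and the 24 h arrays lay below the 12 h arrays. The change was -1.29 ± 0.212 at 12 h (adjusted p = 0.00382) and -2.69 ± 0.212 at 24 h (adjusted p = 1.82e-06; limma, SE, n = 3 per group, Benjamini-Hochberg over 19938 genes, as for all tests here). The 24 h change ranked 25th among all genes from the largest fall. Each same-number pair moved the same way, by -1.39, -1.29 and -1.20 at 12 h and -3.16, -2.61 and -2.29 at 24 h. Without replicate 2 or without replicate 3 in all groups, the 12 h call was lost (adjusted p = 0.126 and 0.0838), with changes of -1.30 and -1.34.

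Zic5, which lies beside Zic2 on chromosome 14 with 0 protein-coding genes between them, followed Zic2 closely on the probe set used. Its signals were 8.63, 8.69 and 8.87 in control day 2.5, 7.57, 7.52 and 7.73 in induced 12 h, 8.76, 8.89 and 8.56 in control day 3, and 6.27, 6.71 and 6.64 in induced 24 h. The groups did not overlap between control and induced arrays, nor between 12 h and 24 h. The change was -1.12 ± 0.151 at 12 h (limma adjusted p = 0.0008), followed by -2.20 ± 0.151 at 24 h (adjusted p = 5.76e-07). Without replicate 2 in all groups, the 12 h call was lost (adjusted p = 0.0823), with a change of -1.10. Over the 14 arrays its signal correlated with that of Zic2 at r = 0.985, as a description of arrays that share their groups.

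The array has a second Zic5 probe set, and it moved less. Its signals were 6.68, 6.67 and 6.73 in control day 2.5, 6.09, 6.03 and 6.31 in induced 12 h, 6.74, 6.89 and 6.68 in control day 3, and 5.79, 6.25 and 6.26 in induced 24 h. The induced arrays again lay below all controls, but the 12 h and 24 h arrays overlapped. In a fit of all probe sets with 1 symbol its change was -0.55 ± 0.148 at 12 h (limma adjusted p = 0.13), followed by -0.67 ± 0.148 at 24 h (adjusted p = 0.0161), a 1.59-fold fall in place of 4.59-fold. With it, 2 of the 7 genes passed at 12 h and 6 at 24 h. It correlated with the first probe set at r = 0.895 and with Zic2 at r = 0.92.

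The Zic5 probe sets also differ in where their numbers place them on the array design. Probe set numbers run along the chromosomes: for 97.1% of probe sets with at least 15 of their 20 nearest-numbered neighbours on 1 chromosome, the named gene lies on that chromosome too. The second Zic5 probe set has 14 of 20 neighbours on chromosome 14, where RefSeq places Zic5. The probe set used has 19 of 20 neighbours on chromosome 11 and 0 on chromosome 14. The single probe sets of the other 6 genes have 17 or more of 20 neighbours on the gene's own chromosome. The annotation gives both Zic5 probe sets the same gene, and which transcripts each detects was not tested, so the larger Zic5 changes hold for that probe set and the direction at 24 h for both.

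**Figure D2:**
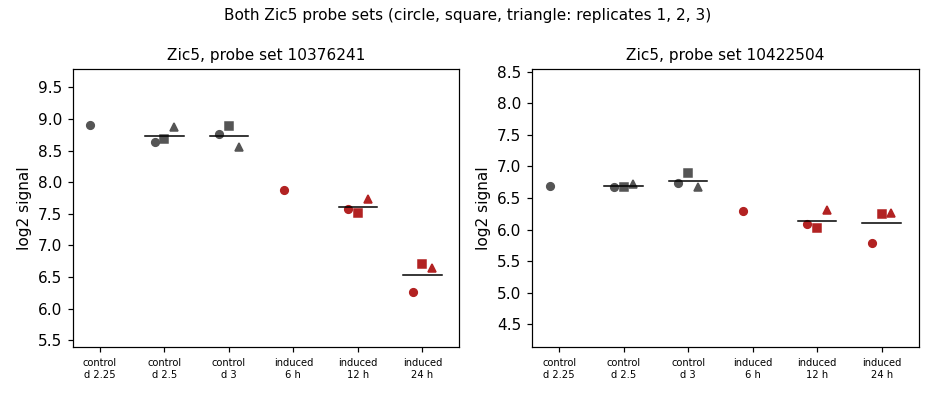
Log2 signal of both Zic5 probe sets on each array, by group (controls grey, doxycycline red; circles, squares and triangles are replicates 1, 2 and 3; bars are means of 3 arrays). Both panels span the same number of log2 units. The probe set used, on the left, falls from a mean of 7.61 at 12 h to 6.54 at 24 h, while the other stays at 6.14 and 6.10.

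Zic1, a gene of the dorsal neural tube, had low signals on all arrays. They were 3.41, 3.32 and 3.52 in control day 2.5, 3.03, 3.45 and 3.27 in induced 12 h, 3.44, 3.65 and 3.49 in control day 3, and 3.34, 3.34 and 3.47 in induced 24 h. The groups overlapped at both times. Its change was -0.16 ± 0.139 at 12 h and -0.14 ± 0.139 at 24 h (limma adjusted p = 0.999 and 0.67), with a 95% interval of -0.44 to 0.16 at 24 h. Zic1 was the 1 gene of the 7 under 4.96, the 40th percentile of mean signal used as a filter on dim genes, and a change in a transcript near background would not be detectable here. Zic4, its neighbour on chromosome 9, did not pass at either time on either of its probe sets, with 24 h changes of 0.18 ± 0.17 and 0.48 ± 0.238 (limma adjusted p = 0.655 and, over all probe sets, 0.35). By number, the second of these has 19 of 20 neighbours on chromosome 7 and 0 on chromosome 9, and what it detects was not tested.

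Sall1 fell at 24 h by less than Zic2 and than the Zic5 probe set used, and by more than the second Zic5 probe set. Its signals were 8.56, 8.27 and 8.38 in control day 2.5, 8.02, 7.81 and 7.93 in induced 12 h, 9.00, 8.62 and 8.60 in control day 3, and 7.43, 7.43 and 6.96 in induced 24 h. The induced arrays lay below the controls of their day without overlap at both times. At 12 h the change of -0.48 ± 0.166 did not pass the test (limma adjusted p = 0.332), and at 24 h the change of -1.46 ± 0.166 did (adjusted p = 5.43e-05). All arrays of 1 group lower than all of the other were found for 5 of the 7 genes at 12 h and 6 at 24 h, against 7.72% and 10.9% of all genes.

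Sall2, a broadly expressed Sall family member, passed at both times and had its larger change at 12 h. Its signals were 6.61, 6.84 and 6.64 in control day 2.5, 5.74, 5.58 and 5.57 in induced 12 h, 5.93, 6.30 and 6.05 in control day 3, and 5.78, 5.49 and 5.16 in induced 24 h. The control arrays of day 3 all lay below those of day 2.5, and the arrays of 12 h and 24 h overlapped. The change was -1.07 ± 0.165 at 12 h (limma adjusted p = 0.00258), followed by -0.62 ± 0.165 at 24 h (adjusted p = 0.042). Set against control day 2.5, the 24 h arrays lay lower, with a difference of -1.22 ± 0.165 (adjusted p = 0.000284). The 12 h call was lost without replicate 2 or 3 in all groups (adjusted p = 0.235 and 0.0662). The 24 h call depended on single arrays: it was lost without any 1 of the control day 3 replicates 1, 2 and 3 (adjusted p = 0.0607, 0.197 and 0.105) or without induced 24 h replicate 2 or 3 (adjusted p = 0.106 and 0.143).

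Sall3, a Sall1 relative expressed in the developing nervous system, had signals of 6.33, 5.99 and 6.28 in control day 2.5, 5.94, 5.87 and 5.66 in induced 12 h, 6.75, 6.58 and 6.40 in control day 3, and 5.77, 5.88 and 5.80 in induced 24 h. The induced arrays of both times sat in the same narrow range, and the controls of day 3 lay above those of day 2.5. The change was -0.38 ± 0.145 at 12 h (limma adjusted p = 0.455), followed by -0.76 ± 0.145 at 24 h (adjusted p = 0.00484). Against control day 2.5, the 24 h arrays differed by -0.38 ± 0.145, which did not pass (adjusted p = 0.154). The 24 h call was lost without replicate 2 or 3 in all groups (adjusted p = 0.114 and 0.0501).

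Sall4, the Sall factor required for ES cell self-renewal, passed at 24 h and not at 12 h. Its signals were 10.16, 10.21 and 10.09 in control day 2.5, 10.25, 10.09 and 10.03 in induced 12 h, 10.38, 10.21 and 10.16 in control day 3, and 9.58, 9.79 and 9.46 in induced 24 h. At 12 h the groups overlapped almost fully, and at 24 h all induced arrays lay lower. The change was -0.03 ± 0.135 at 12 h (limma adjusted p = 0.999, 95% interval -0.32 to 0.26) and -0.64 ± 0.135 at 24 h (adjusted p = 0.00965). The 24 h call was lost without control day 3 replicate 1 (adjusted p = 0.0607) and without replicate 1, 2 or 3 in all groups (adjusted p = 0.0718, 0.108 and 0.152), with the change between -0.75 and -0.56 in these fits.

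**Figure D3:**
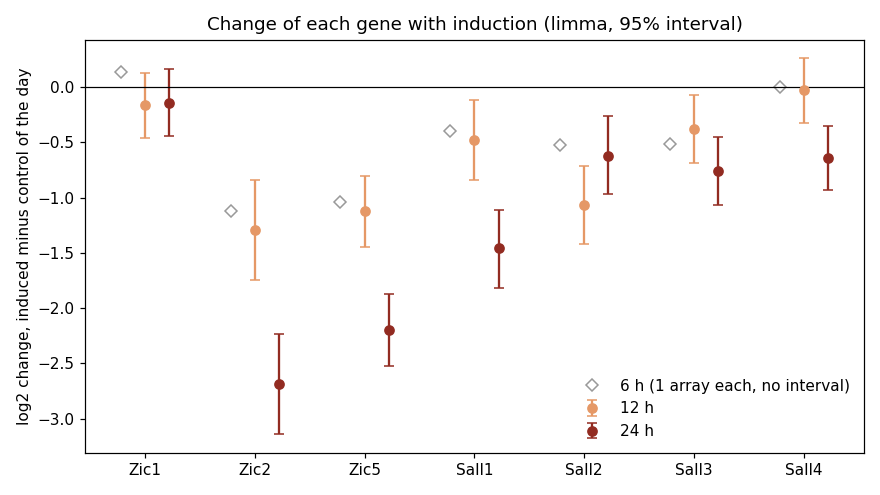
Log2 change of each gene, induced minus the control of the same day, at 6 h (open diamonds, 1 array per group, no interval), 12 h (orange) and 24 h (dark red), with 95% intervals from limma and n = 3 arrays per group. The intervals of Zic2, Zic5 and Sall2 at 12 h and of all genes but Zic1 at 24 h lie below 0 and passed the adjusted test, and those of Sall1 and Sall3 at 12 h lie below 0 without passing it.

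After 6 h, on 1 array against 1 with no replicate check, Zic2 and Zic5 were already at least 2-fold lower, as were 0.135% of all genes (27). Zic2 was 7.70 in induced 6 h and 8.82 in control day 2.25, a difference of -1.12, the 13th largest fall of all genes. Zic5 was 7.88 and 8.91, a difference of -1.04, and its second probe set differed by -0.39. Sall2, Sall3 and Sall1 differed by -0.52, -0.51 and -0.40. Sall4 was 10.09 on both arrays, and Zic1 differed by 0.14.

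From 12 h to 24 h the induced cells lost more Zic2 and Zic5 signal. The difference between induced 24 h and induced 12 h was -1.23 ± 0.212 for Zic2 (limma adjusted p = 0.00752) and -1.07 ± 0.151 for Zic5 (adjusted p = 0.00206), so 2 of 7 passed, against 1.25% of all genes in that direction. For the second Zic5 probe set the difference was -0.04 ± 0.148 (adjusted p = 0.945). Sall1 differed by -0.65 ± 0.166 and Sall4 by -0.51 ± 0.135, without overlap between the groups, and neither passed (adjusted p = 0.0713 and 0.0803). Without replicate 2 or without replicate 3 in all groups, 0 of the 7 passed. Without induced 12 h replicate 3, Zic2 did not pass (adjusted p = 0.0514).

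Whether the effect of induction itself grew from 12 h to 24 h was tested as the difference between the changes at each time. For Zic5 it was -1.08 ± 0.214 (limma adjusted p = 0.0447), the 1 gene of the 7 that passed, against 0.326% of all genes. Zic2 differed by -1.39 ± 0.299 and Sall1 by -0.98 ± 0.235 without passing (adjusted p = 0.07 and 0.121). Sall4 differed by -0.61 ± 0.191, Sall3 by -0.38 ± 0.205 and Sall2 by 0.45 ± 0.234 (adjusted p = 0.368, 0.948 and 0.933). The second Zic5 probe set gave -0.12 ± 0.209 (adjusted p = 1.0), and the Zic5 call was lost when any 1 array was left out other than induced 24 h replicate 3.

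**Figure D4:**
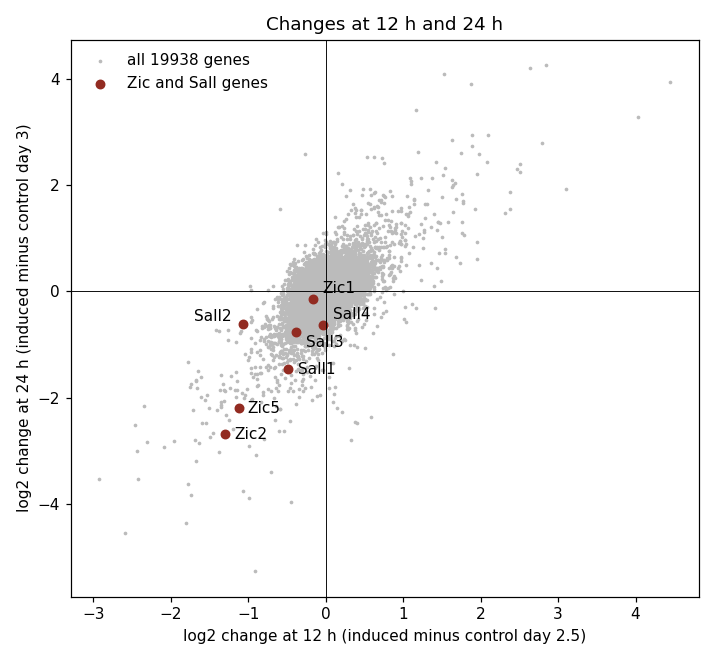
Log2 change at 12 h (x axis, induced 12 h minus control day 2.5) against that at 24 h (y axis, induced 24 h minus control day 3) for all 19938 genes in grey and the 7 genes in red. Zic2 and Zic5 lie far towards lower left, Sall1 and Sall4 are displaced mainly along the 24 h axis, and Sall2 is displaced more along the 12 h axis.

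In the untreated cells 0 of the 7 genes passed the limma test between day 2.5 and day 3, where 0.757% of all genes passed in either direction. At an unadjusted p under 0.05 there were 2, Sall2 with -0.60 ± 0.165 and Sall3 with 0.37 ± 0.145 (adjusted p = 0.163 and 0.533), among 1307 genes. Sall1 differed by 0.34 ± 0.166, Zic2 by 0.17 ± 0.212 and Zic5 by 0.00 ± 0.151. Compared with control day 2.5, induced 24 h was lower for Zic2, Zic5, Sall1 and Sall4, with differences of -2.52 ± 0.212, -2.19 ± 0.151, -1.13 ± 0.166 and -0.54 ± 0.135 (limma adjusted p = 3.7e-06, 7.31e-07, 0.000576 and 0.0254). With Sall2 these were 5 of 7, against 4.03% of all genes. On the second Zic5 probe set the difference was -0.60 ± 0.148 (limma adjusted p = 0.0294). The Sall4 call in that comparison was lost without any 1 replicate of control day 2.5 or without induced 24 h replicate 3 (adjusted p from 0.0638 to 0.081).

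In order of mean level, Zic2 ran from control day 3 (9.17) to control day 2.5 (9.00), induced 12 h (7.71) and induced 24 h (6.48), and the neighbours differed except for the controls. Zic5 had the same order on the probe set used, 8.74, 8.73, 7.61 and 6.54. On the second Zic5 probe set the means were 6.77, 6.69, 6.14 and 6.10. There the induced times did not differ (-0.04 ± 0.148, limma adjusted p = 0.945). Sall1 (8.74, 8.40, 7.92 and 7.27) had the same order, but no pair of neighbours passed the test. Sall2 ran from control day 2.5 (6.70) through control day 3 (6.09) and induced 12 h (5.63) to induced 24 h (5.48), again with no neighbours apart. Sall3 had 5.82 in both induced groups. For Sall4 only induced 24 h (9.61) stood off from the 3 other groups (10.12 to 10.25), and it passed against both controls but not against induced 12 h.

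Line iB1 gave values close to those of iEGS. Between the lines 0 of the 7 genes and 0 of all genes passed the limma test, with 0 of the 7 and 1528 of all genes at an unadjusted p under 0.05. Differences of iB1 from iEGS ranged from -0.18 (Sall1, Sall2) to 0.11 (Zic2). For the induction effect by line, 0 of the 7 and 0 of all genes passed, with 0 and 519 at an unadjusted p under 0.05. Replicate 3 is the only experiment of iB1, so line and experiment cannot be told apart.

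Genes of the same tissue and pathway were counted from lists chosen by known role. Across all genes, 3.43% passed as lower at 24 h and 0.577% at 12 h. Of 17 epiblast genes, 13 fell and 0 rose at 24 h, and the list's median was -1.84. Fst, an activin antagonist, fell by 4.55 ± 0.192, and Cer1, a secreted Nodal and BMP antagonist, by 5.28 ± 0.319 (limma adjusted p = 5.52e-09 and 2.13e-07). Between control days 2 of the 17 rose and 0 fell, against 0.757% of all genes in either direction. Cer1 was among those that rose, by 2.35 ± 0.319 (limma adjusted p = 0.00211). Its induced 24 h level differed from control day 2.5 by -2.92 ± 0.319 (adjusted p = 3.83e-05). The primed-state growth factor Fgf5 fell by 3.63 ± 0.176, the homeobox factor Otx2 by 2.21 ± 0.158 and the DNA methyltransferase Dnmt3b by 1.13 ± 0.183 (adjusted p = 2.27e-08, 7.76e-07 and 0.00132). The POU factor Pou3f1 changed by -0.17 ± 0.132 without passing (adjusted p = 0.58). At 12 h 6 of the 17 passed, all lower, Fgf5 with a change of -1.78 ± 0.176 (adjusted p = 6.23e-05).

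Of 10 general pluripotency genes, 4 fell and 0 rose at 24 h, with a median of -0.53. They were the Nodal co-receptor Tdgf1 (-2.17 ± 0.133), Sox2 (-1.17 ± 0.301), Foxd3 (-0.72 ± 0.145) and Pou5f1 (-0.68 ± 0.154; limma adjusted p = 2.29e-07, 0.0349, 0.00703 and 0.015). Between control days 2 of the 10 fell and 0 rose, against 0.757% of all genes in either direction. These were Foxd3, by 0.80 ± 0.145, and Utf1, by 1.16 ± 0.217 (limma adjusted p = 0.0168 and 0.0195). Of 13 naive pluripotency genes, Nanog fell by 1.99 ± 0.168 (adjusted p = 3.4e-06) and Tbx3, which is also a mesoderm and heart gene, rose by 0.82 ± 0.16 (adjusted p = 0.00544). Tbx3 rose in untreated cells from day 2.5 to day 3 as well, by 1.32 ± 0.16 (adjusted p = 0.000769). The naive list's median was -0.14.

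Of 20 neural plate and neural crest genes, 6 fell and 0 rose at 24 h, with a median of -0.09. The 3 largest falls were those of the intermediate filament gene Nes (-1.18 ± 0.286), Sox2, which is on the pluripotency list too, and the BMP target Msx2 (-1.02 ± 0.203; limma adjusted p = 0.0242 for Nes and 0.00642 for Msx2). In untreated cells Msx2 rose from day 2.5 to day 3, by 1.43 ± 0.203 (limma adjusted p = 0.00273). Its induced 24 h level did not pass against control day 2.5, with a difference of 0.41 ± 0.203 (adjusted p = 0.295). Sox1 and Pax6, which define the neural plate, differed by -0.10 ± 0.16 and 0.41 ± 0.146 at 24 h and did not pass. Of 13 Gli and hedgehog pathway genes, 3 fell, the transcription factor Gli2 (-0.88 ± 0.158) and the co-receptors Gas1 (-0.67 ± 0.167) and Boc (-0.60 ± 0.159; adjusted p = 0.00293, 0.0293 and 0.0417). Of 13 NuRD complex genes, the partners of Sall proteins, 0 passed in either direction at 24 h, and the median was -0.13.

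**Figure D5:**
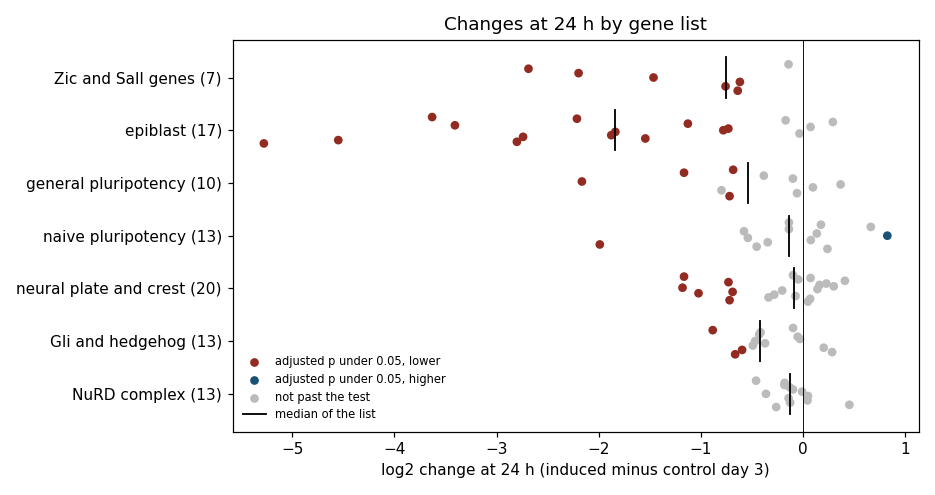
Log2 change at 24 h, induced minus control day 3, of each measured gene of the 7 and of 6 gene lists, with the number measured in brackets, red for lower and blue for higher at a limma adjusted p under 0.05, grey otherwise, and a bar at the median. The Zic and Sall genes have a median of -0.76, the epiblast genes -1.84 and the NuRD genes -0.13.

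Markers of other cells moved beside these genes. Of 14 genes of the primitive streak, 10 were lower and 0 higher at 24 h, Mixl1 by 3.84 ± 0.254 and Mesp1 by 4.36 ± 0.232 (limma adjusted p = 4e-07 and 5.41e-08), and the log2 of their summed signal was 12.27 to 12.56 in control day 3 and 9.44 to 9.72 in induced 24 h. Between control days 4 of the 14 streak genes rose and 0 fell, against 0.757% of all genes in either direction. Mixl1 rose by 1.19 ± 0.254 and Mesp1 by 2.55 ± 0.232 (limma adjusted p = 0.046 and 0.000119). Against control day 2.5, induced 24 h was lower for 9 of the 14 and higher for 0. The differences were -2.65 ± 0.254 for Mixl1 and -1.81 ± 0.232 for Mesp1 (adjusted p = 1.17e-05 and 0.000182). Of the 12 endothelial genes 9 rose, as given above, among them Fli1 by 4.27 ± 0.17 (adjusted p = 4.5e-09). Of 14 fibroblast feeder genes, 1 rose (Thy1) and 1 fell (Tagln), and their summed signal was 11.14 to 11.52 in control day 3 and 11.25 to 11.56 in induced 24 h. Of 11 visceral endoderm genes, 1 was lower than in control day 3 (Gata4), and their summed signal was 9.73 to 10.01 and 9.37 to 9.59. That sum was 8.90 to 9.14 in control day 2.5. Gata4 rose in untreated cells from day 2.5 to day 3, by 1.61 ± 0.169 (limma adjusted p = 0.000322). Its induced 24 h level differed from control day 2.5 by 0.02 ± 0.169 (adjusted p = 0.972). The part of any change in cell types in the falls of the Zic and Sall genes was not tested.

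Over the 14 arrays, the genes whose signals ran most like each member's, among genes with a mean above the median of all genes, were as follows. Zic2 correlated best with Fgf5 (Pearson r = 0.978), Otx2 (0.974) and Mycl (0.965), and Zic5 with Fgf5 (0.981), Pmepa1 (0.978) and Kcnj3 (0.976). Sall1 ran with Itgb5 (0.98), Irs1 (0.976) and Lef1 (0.972), and Sall2 with Nefm (0.949), G3bp2 (0.944) and Foxd3 (0.943). Sall3 ran with Pcdh18 (0.949), Sp5 (0.94) and Prickle1 (0.924), and Sall4 with Bcl9 (0.943), Plxnb1 (0.943) and Tead2 (0.928). For Zic1, with low signals on all arrays, the highest values were lower, 0.821 for Npm1, 0.817 for Zfp189 and 0.807 for Ciao2a. Npm1 spanned only 0.39 log2 units over the arrays. Among the members, Sall1 correlated at 0.892 with Zic2 and 0.922 with Zic5, and Sall2 at 0.432 with Sall3 and 0.549 with Sall4. The arrays share their groups, so these are descriptions of a common course, except for Zic1, which passed no test between groups.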

How the data were processed

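Each of the 14 samples, RNA of EBs, had 1 Affymetrix array. The deposited values are log2 signals of 35556 probe sets, for which the submitters' processing notes name RMA and Affymetrix Expression Console without versions. The labels' protocols include an amplification of the complementary DNA. RMA normalizes arrays towards a common distribution and compresses low signals, so these values cannot show a shift of most genes, and understate changes of dim ones. The SD over genes still ran from 1.91 to 2.23 between arrays. A second quantile normalization moved the Zic2 change at 24 h from -2.69 to -2.52. The platform annotation gave 21789 probe sets 1 symbol, 1621 several and left 12146 unlisted. RefSeq (GRCm38.p6) held 21698 of the 21789 and changed 0 symbols. The probe set with the highest mean stood for a gene, which left 19938 genes.

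The 12 arrays of the 4 groups with 3 arrays entered a joint fit of group means (lmFit and eBayes of limma 3.58.1, R 4.3.3, with 8 residual and 6.05 prior degrees of freedom), and genes passed at a Benjamini-Hochberg adjusted p under 0.05 over all genes. The groups with 1 array had no test, and genes at least 2-fold apart were counted. The design text speaks of independent experiments, and whether these were separate cultures in each case is not stated, so p-values measure the spread between these arrays. Arrays of the same label number deviated together from their group means. The correlations over genes were 0.573, 0.344 and 0.262 for the control and induced arrays of day 2.5. For those of day 3 they were 0.517, 0.157 and 0.261. Different numbers gave -0.415 to 0.167 on day 2.5 and -0.535 to 0.375 on day 3. The value of 0.375, for control 2 with induced 3, lay above the same-number values of 2 and 3. Within a day the numbers were taken to pair the arrays, less clearly so on day 3. The fit without the block was kept as the main one, so its p-values do not use this pairing. On simulated data for the 24 h comparison with 19938 genes, it recovered 70 of 100 genes changed by 1 log2 unit and 99 of 100 changed by 2, with 13 false calls. The simulated arrays had independent normal noise with each gene's own spread. They lacked the shared deviations of same-number arrays, so these counts hold for that simpler setting only.

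The members and gene lists were chosen with earlier results of these data known, so the counts of a list are descriptions. Of 138 listed symbols, 3 were not analysed here. The text names the 7 members, Zic4, the induced factors and for each member the 3 genes with the highest correlation. From each list it names up to 3 genes with the largest change among those called at 24 h. Of the preset markers it names only some. Alternatives were a replicate block, quantile normalization, median centring, a filter on genes under the 40th percentile of mean signal, the mean of a gene's probe sets, fits of the compared groups alone, array weights and leaving out arrays. The second Zic5 probe set, a gene-by-gene method for the array weights and the check of probe set neighbours were chosen after seeing the data.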

Additional observations from a re-analysis of the deposited data

Results flagged for a closer look

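For Zic5, the induction effect at 24 h differed from that at 12 h by -1.08 ± 0.214 log2 units (limma adjusted p = 0.0447, n = 3 arrays per group), which marks a difference of the same contrast between time points. All 3 same-number differences were larger in size at 24 h (-2.49, -2.18 and -1.92) than at 12 h (-1.06, -1.17 and -1.14). Under the alternatives the adjusted p ranged from 0.0114 to 0.845 and the difference from -1.22 to -0.60, and 4 of 21 passed. The second Zic5 probe set gave -0.12 ± 0.209 (adjusted p = 1.0). Which transcripts the probe sets detect was not tested.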

How the results depend on the processing

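The falls of Zic2, Zic5 and Sall1 at 24 h kept their direction and passed under all 16 alternatives run (-2.88 to -2.44, -2.34 to -1.43 and -1.60 to -1.31). Over single genes and comparisons, 623 alternatives kept direction and side of the threshold, 57 lost the call, 17 gained one and 29 changed sign. The replicate block gives a number the same effect on both days. The numbers were taken to pair the arrays within a day. Between days they were not, with same-number correlations of 0.556, 0.221 and 0.0411 for the controls and 0.511, -0.00474 and 0.316 for the induced arrays. Calls gained with the block in comparisons that span days are therefore not taken as results. The change of effect is built from differences within each day, but a separate block for the numbers of each day was not run. Its gained calls are not taken as results either. The gained calls were Sall1 and Sall4 between induced times (limma adjusted p = 0.0177 and 0.0358) and Zic2 and Sall1 for the change of effect (0.0117 and 0.0294). The block changed no other call of a member. With it, the genes called were 441 at 12 h (277 without), 344 between control days (151), 742 between induced times (360), 2187 for 24 h against control day 2.5 (1262) and 163 for the change of effect (85), and the members called were 4 between induced times and 3 for the change of effect. Array weights gave 798 genes at 12 h, 2634 at 24 h (1088), 471 between control days, 1495 between induced times, 4091 for 24 h against control day 2.5 and 318 for the change of effect, with 5, 1 and 3 members called at 12 h, between control days (Sall2) and for the change of effect. The compared groups alone gave 669 genes at 24 h, 100 between induced times with 1 member, and 679 for 24 h against control day 2.5; fewer arrays enter those fits. In those fits the 24 h calls of Sall2 and Sall4 were lost (adjusted p = 0.176 and 0.0763), as was that of Sall2 after quantile normalization or median centring (0.0526 and 0.0603). Quantile normalization gave 139 genes for the change of effect. Without dim genes, 4 members passed between induced times and 2 for the change of effect, since fewer genes are tested. The mean of the probe sets left 1 member between induced times, 0 for the change of effect and 1 at 6 h, since it averages both Zic5 probe sets. Median centring left 0 for the change of effect, and the cause was not tested.

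Leaving out arrays, the genes called ranged from 80 to 222 at 12 h, 392 to 1889 at 24 h, 17 to 189 between control days, 21 to 727 between induced times, 487 to 2604 for 24 h against control day 2.5, and 2 to 109 for the change of effect. The highest values at 24 h, between induced times and against control day 2.5 were without induced 24 h replicate 1, and the lowest without replicate 2 or 3 in all groups. Members called ranged from 0 to 3 at 12 h, 3 to 6 at 24 h, 0 to 3 between induced times and 0 to 1 for the change of effect. Sign changes were all of uncalled values near 0. Sall4 at 12 h gave -0.09 to 0.02 without single arrays or replicate numbers. Zic5 between control days gave -0.05 with array weights and -0.09 to 0.16 without arrays. Between induced times, Zic1 gave 0.00 after quantile normalization, Sall2 -0.31 to 0.00 without arrays, and Sall3 0.10 after quantile normalization, 0.04 after median centring, 0.07 with array weights and -0.09 to 0.07 without arrays. Zic1 gave 0.00 for 24 h against control day 2.5 after median centring and -0.08 to 0.02 without arrays, and for the change of effect -0.09 after quantile normalization, -0.01 with array weights and -0.10 to 0.25 without arrays. Signals near background limit Zic1 and Zic4.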
